A study of Gallus gallus with 16 samples.

Results

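Prolonged form deprivation was compared with normal vision in the retina/RPE/choroid of the chick eye. The comparison covered 8 of the 16 RNA-seq libraries of the series, 4 from chicks labelled FDM (form-deprivation myopia) after 7 days of occlusion and 4 from No-Lens controls, and it took these 8 because their labels place them in those 2 groups. All were male Leghorn/New Hampshire chicks kept on a 12 h light and 12 h dark cycle, and every library came from the right eye of 1 chick. The FDM chicks wore a translucent occluder over the right eye from post-hatch day 5 and were collected when it came off, with no recovery. The controls wore no lens and were collected at the end of the same 7 days. Counting from the start of occlusion puts collection on day 12, but both groups carry an age of 20 days in the labels, so the age is uncertain. The study sequenced 4 of the 8 chicks of each condition, chosen for comparable axial length, so the libraries are not a random draw of the chicks raised. The remaining 8 libraries come from chicks given 6 h (FDMR 6 h) or 24 h (FDMR 24 h) of normal vision after 7 days of occlusion. They entered the fit to help estimate the spread between chicks. They also counted in the filter that chose the genes tested, in the scaling of the libraries and in the axis of variation described below.

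A diffuser removes spatial detail from the image and the young eye responds by growing longer, which is the standard experimental model of myopia. The signal arises in the retina, passes through the retinal pigment epithelium (RPE) and choroid, and alters the matrix of the sclera. BMP and Wnt ligands, retinoic acid, dopamine, glucagon-family peptides and inhibitory transmission have all been studied as carriers of that signal in chicks. The dissected tissue held neural retina, RPE and choroid together. A difference in counts can therefore reflect less RNA per cell or fewer cells of a type, and the 2 cannot be told apart in bulk tissue.

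The values are read counts per gene, given below as CPM, the counts scaled to the library's total on genes after TMM correction. The 8 libraries held 3039798 to 4816425 counts on genes, with a median of 3962160.5 in the controls and 3560236.5 in FDM. Of 17108 genes in the table, 11334 had at least 10 counts in at least 4 of the 16 libraries and were tested, and they held 99.8% of the counts. At this depth the median standard error of a log2 fold change was 0.34 for genes with a mean of 10 to 30 counts and 0.08 above 1000 counts. One control and one FDM library stood apart from the rest. Control chick 3 had correlations of 0.952 to 0.971 with the other 3 controls on the log2 CPM scale, whereas those 3 correlated with each other at 0.981 to 0.984. Its closest library was FDM chick 9, at 0.980. Both lay at the same end of the first axis of variation between chicks of a group, with scores of 41.7 and 28.3 against -25.1 to 0.40 for the other 6, and that axis held 39.5% of the variance within groups. The labels name no batch that separates these 2 chicks. Values without control 3, or without both, are given beside some of the results but not all.

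The question was which genes differ in their steady level after a week without form vision. In edgeR's quasi-likelihood test, 3 of 11334 genes passed a false discovery rate (FDR) of 5% and are referred to as called, 1 higher in FDM (0.00882% of the genes tested) and 2 lower (0.0176%), or 0.0265% in all. These were WNT9A, BMP2 and SHC4. The next lowest adjusted p was 0.161. An unadjusted p under 0.05 was reached by 454 genes (4.01%), 183 of them higher (1.61%) and 271 lower (2.39%). In 310 genes (2.74%) every chick of one group lay above every chick of the other, 120 with FDM higher (1.06%) and 190 with FDM lower (1.68%). For such a gene a two-sided exact permutation test of 4 chicks against 4 gives p = 0.0286, the smallest its 70 assignments allow. Without any group difference, about 0.05 of genes would reach an unadjusted p under 0.05 and about 0.0286 would be so separated. The observed shares of 4.01% and 2.74% were not above these. The expected shares are averages. Many genes vary together along the axis above, so a single observed share can lie well above or below them. With that axis, drawn from these same libraries, as a covariate, 1135 genes had an unadjusted p under 0.05 and 82 were called. Effects were small across the transcriptome. The log2 fold changes of FDM against control had a median of 0.00 and 5th and 95th percentiles of -0.29 and 0.40. Beyond 0.5 in either direction lay 543 genes, 148 of them with an unadjusted p under 0.05, and beyond 1 lay 48 genes, 35 of them under that p. For 62% of the genes the 95% interval of the log2 fold change lay wholly between -0.5 and 0.5. With only these 8 libraries in the same edgeR test, the count of called genes was 0, with 411 under the unadjusted p of 0.05, whereas DESeq2 called 8 genes on all 16 libraries.

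**Figure D1:**
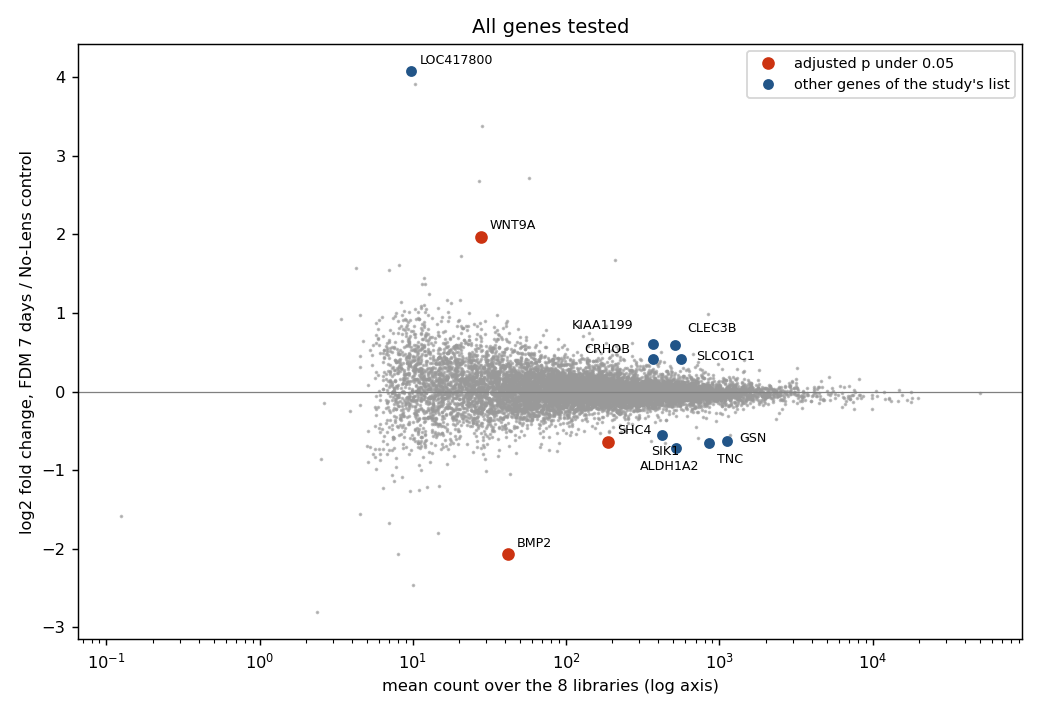
Log2 fold change of FDM 7 days over No-Lens control (vertical) against the mean count over the 8 libraries (horizontal, log axis) for the 11334 genes tested, each a point. The 3 called genes are red and further genes of the study's list are blue; the cloud narrows with depth, and BMP2 at -2.07 and WNT9A at 1.97 lie outside it at low counts.

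BMP2 (ENSGALG00000008830), a secreted ligand of the bone morphogenetic protein family, fell the furthest of the called genes. The controls had 12.3, 18.9, 19.6 and 19.4 CPM of BMP2 (chicks 3, 4, 6 and 7, the order used throughout) and the FDM chicks 3.28, 3.45, 6.91 and 3.30 CPM (chicks 9, 10, 12 and 13). The groups did not overlap, and the lowest control was the chick that stood apart. The means were 17.5 ± 3.49 and 4.24 ± 1.78 CPM (SD, n = 4 chicks each), a log2 fold change of -2.07 (95% interval -2.53 to -1.60, adjusted p = 0.000276 in edgeR's quasi-likelihood test). Without both control 3 and FDM 9 the log2 fold change was -2.11 with an edgeR adjusted p of 0.000316. Leaving out each of the 8 chicks in turn kept the adjusted p of BMP2 between 3e-05 and 0.0044. These fits kept the recovery libraries. With only the 8 compared libraries in the fit, BMP2 was not called.

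BMPs bind type I and type II receptor kinases that phosphorylate SMAD proteins, and secreted antagonists hold the ligands away from the receptors. The list of the BMP and TGF-beta pathway was, like all family lists here, written with earlier results of these data known. Shares of members under a p are therefore descriptions only. The list had 71 entries, of which 51 genes were tested. Of these 22 were higher and 29 lower, with a median log2 fold change of -0.03 against 0.00 over all genes tested. Besides BMP2, 4 members had an unadjusted p under 0.05, which with BMP2 makes 9.8% of the list against 4.01% of all genes, and none of these 4 was called. BMP7, a second ligand, had 229, 294, 311 and 285 CPM in the controls and 219, 221, 226 and 202 CPM in FDM. The log2 fold change of BMP7 was -0.37 (standard error 0.12). The groups were separated, although control 3, at 228.8 CPM, was close to FDM 12, at 226.1 CPM. BMPR-II, the type II BMP receptor, had 145, 137, 155 and 136 CPM in the controls and 111, 136, 112 and 117 CPM in FDM, a log2 change of -0.27 (standard error 0.09). Control 7 at 136.1 and FDM 10 at 135.7 CPM were nearly level. The gene NOG encodes noggin, an antagonist that binds BMP2. It had 1.68, 2.07, 2.65 and 3.46 CPM in the controls and 5.75, 7.19, 4.32 and 3.72 CPM in FDM. Its log2 fold change of 1.06 (standard error 0.35) rested on a mean of 14.6 counts per library. Without both control 3 and FDM 9 that change was 0.87. CHRDL1, chordin-like 1, another secreted BMP antagonist, had a log2 fold change of 0.19 (185 and 212 CPM on average). So the members under that p comprised 2 ligands and a receptor with lower values and 2 antagonists with higher values in FDM. They were picked by p, and the antagonists did not move together. Of the 13 antagonists and binding proteins tested 7 were higher and 6 lower, and their median was 0.01 on the log2 scale.

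Ligands, receptors and transducers had median log2 fold changes of 0.03, -0.06 and -0.055, close to the median of all genes. The median of the target genes was lower, at -0.22. The 12 ligands tested were split evenly, 6 higher and 6 lower. Of the 13 receptors 4 were higher and 9 lower, with log2 fold changes between -0.36 and 0.41. None of the 8 transducers (SMAD and SMURF genes) and none of the 5 target genes had an unadjusted p under 0.05. The transducers ranged from -0.20 to 0.10 on the log2 scale. The inhibitor of differentiation genes, which BMP signals induce in many cells, had log2 fold changes of -0.23 for ID1, -0.22 for ID2 and -0.36 for ID3, and none of these was called. The other 2 target genes tested were higher, up to 0.33. The median standard error of the 5 target genes was 0.33. BMP4, a ligand close to BMP2 in sequence, averaged 5.38 CPM in the controls and 6.04 CPM in FDM. The pathway score of a chick averages, across the tested genes, how far its log2 CPM lies from the gene's mean in the 8 chicks. It was -0.33 in control 3 and 0.09 to 0.14 in the other controls, against -0.13 to 0.10 in FDM. Without control 3 and FDM 9 the median log2 fold change of the list was -0.07, with 18 members higher and 33 lower.

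**Figure D2:**
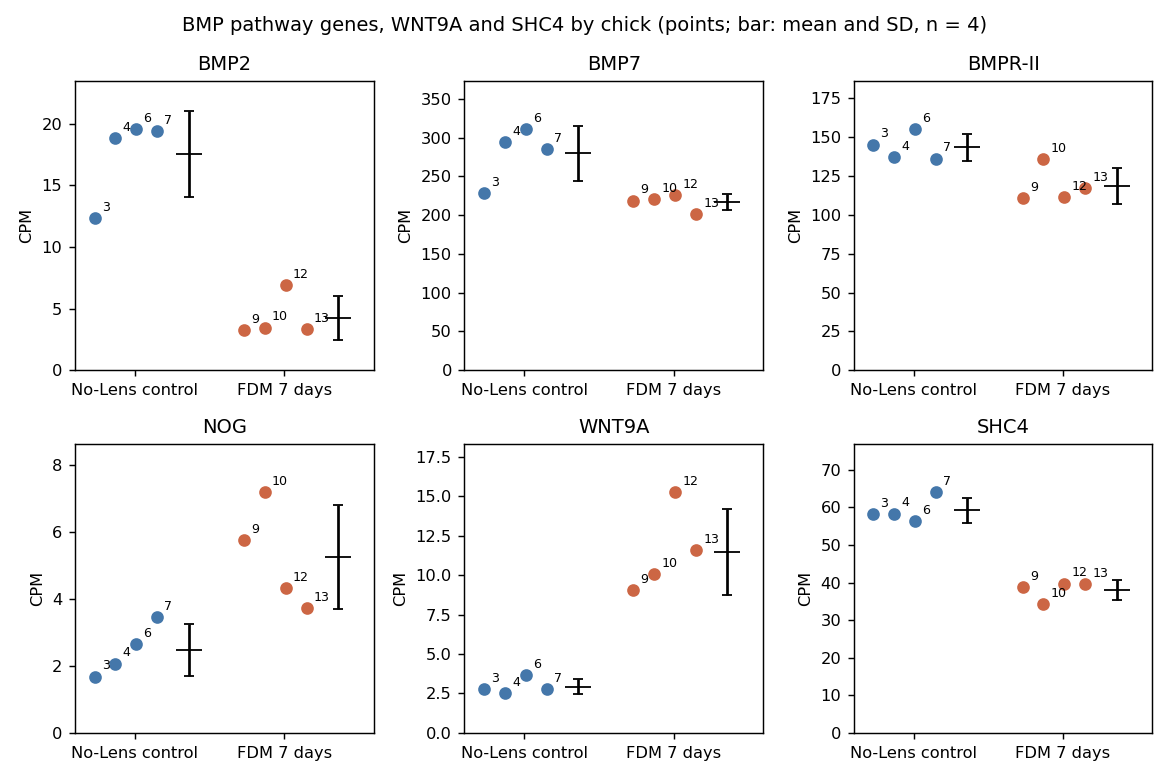
CPM (vertical, from 0) of BMP2, BMP7, BMPR-II, NOG, WNT9A and SHC4 in each control (blue) and FDM (orange) chick, numbered by chick, with the mean and SD of 4 chicks as a bar. The 2 groups do not overlap in any of the 6 genes, and control 3 is the lowest control in BMP2, BMP7 and NOG.

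WNT9A (ENSGALG00000005401), a secreted Wnt ligand, rose. The controls had 2.80, 2.53, 3.64 and 2.77 CPM and the FDM chicks 9.03, 10.1, 15.3 and 11.6 CPM. The groups were well separated. The means were 2.93 ± 0.488 and 11.5 ± 2.73 CPM (SD, n = 4), a log2 fold change of 1.97 (95% interval 1.31 to 2.64, adjusted p = 0.0385 in edgeR). The 4 control libraries held 44 counts of WNT9A and the 4 FDM libraries 177, a ratio of 3.98 with a 95% interval of 2.85 to 5.67 that covers counting error only. The edgeR adjusted p of WNT9A was 0.0469 without FDM chick 9 and passed 0.05 without any one of the other 7 chicks, up to 0.247. The 38 Wnt pathway genes tested, of 66 listed, had a median log2 fold change of -0.01, with 18 higher and 20 lower. The Wnt ligands that passed the count minimum besides WNT9A were few. WNT7B, WNT5A and WNT10A had log2 fold changes of -0.42, -0.08 and 0.39. One further member had an unadjusted p under 0.05. NKD1, a cytoplasmic inhibitor that Wnt signalling itself induces, had 17.1, 15.6, 14.9 and 13.6 CPM in the controls and 9.31, 8.63, 9.79 and 13.01 CPM in FDM. Its log2 fold change was -0.57 (standard error 0.18). AXIN2, another gene induced by Wnt signals, had a log2 fold change of -0.14, and CTNNB1, which encodes beta-catenin, one of -0.04. Of all 9 Wnt transducers and target genes tested, 4 were higher and 5 lower, from -0.68 to 0.67.

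SHC4 (ENSGALG00000005011), an adaptor that couples receptor tyrosine kinases to Ras, fell from a narrow range in one group to a narrow range in the other. The controls had 58.2, 58.4, 56.3 and 64.1 CPM and the FDM chicks 38.9, 34.2, 39.8 and 39.7 CPM. The means were 59.3 ± 3.38 and 38.1 ± 2.63 CPM (SD, n = 4), a log2 fold change of -0.64 (95% interval -0.86 to -0.41, adjusted p = 0.0456 in edgeR). The gap between the groups exceeded the range within either of them, and control 3 and FDM 9 lay inside their own groups. The call was nevertheless lost when any 1 of the 8 chicks was left out, with edgeR adjusted p between 0.0799 and 0.308, while the log2 fold change stayed between -0.66 and -0.59 in every alternative fitted. The 14 genes tested in the list of Src family kinases and Shc adaptors had a median log2 fold change of 0.02, with 8 higher and 6 lower.

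LOC417800, for which the files give no further name, was counted 0, 2, 0 and 2 times in the controls and 24, 25, 11 and 14 times in FDM. The ratio was 18.3 after scaling for library size (95% interval 6.85 to 68.9, counting error only), with an edgeR adjusted p of 0.161. It passed the count minimum only through the FDM libraries, where it is high. Its ratio, interval and p are therefore descriptions of a gene selected in that way. Of 13 leukocyte genes tested, 8 were higher and 5 lower, and their summed level was 225 to 342 CPM in the controls and 241 to 275 CPM in FDM. PTPRC (CD45, carried by all leukocytes) averaged 6.94 ± 1.15 and 7.10 ± 0.896 CPM.

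BMP2, WNT9A, SHC4 and LOC417800 belong to a list that the study gives for this comparison. The list was chosen on these libraries, so its direction here is not independent evidence. All 13 genes of it had an unadjusted p under 0.05 and no overlap between the groups, 7 higher and 6 lower in FDM, and 3 of them were called. ALDH1A2, an enzyme that makes retinoic acid and in the chick eye is found in the choroid, had 131, 227, 164 and 148 CPM in the controls and 101, 96.1, 114 and 96.4 CPM in FDM. The FDM chicks lay close to each other while the controls were spread more widely, with control 4 the highest. The log2 fold change of ALDH1A2 was -0.72 (standard error 0.16, edgeR adjusted p = 0.343). The 16 genes of the retinoic acid pathway were split evenly with a median of 0.02, and ALDH1A2 was the one member under the unadjusted p of 0.05. The other retinaldehyde dehydrogenases had log2 fold changes of -0.52 (ALDH6, the table's name for ALDH1A3, standard error 0.35) and -0.01 (ALDH1A1). RDH10, which makes their substrate, stood at 0.22. The breakdown enzyme CYP26B1 averaged 1.14 and 1.91 CPM, too low for its log2 fold change of 0.68 (standard error 0.46) to be separated from 0.

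Genes of the extracellular matrix that are not structural collagens made up another part of that list. TNC encodes tenascin C, a matrix glycoprotein that modulates adhesion. It had 304, 265, 246 and 271 CPM in the controls and 167, 123, 175 and 223 CPM in FDM, a log2 change of -0.66 (standard error 0.20). KIAA1199, also known as CEMIP, a hyaluronan-degrading protein, had 76.4, 73.55, 74.9 and 76.4 CPM in the controls, a narrow range. In FDM it had 149, 102, 94.2 and 114 CPM, and its log2 fold change was 0.61 (standard error 0.14). CLEC3B (tetranectin, a plasminogen-binding protein) had 93.2, 106, 124 and 102 CPM against 151, 151, 188 and 153 CPM, a log2 change of 0.60 (standard error 0.16). Their edgeR adjusted p were 0.838, 0.356 and 0.628. MATN4, a matrilin that links matrix fibres and is not on the study's list, had 3.92, 8.27, 8.28 and 9.23 CPM in the controls. All FDM chicks had between 11.8 and 12.3 CPM of it. The log2 fold change of MATN4 was 0.69, and 0.47 without both control 3 and FDM 9. OSF-2, the table's name for periostin, averaged 15.3 ± 6.98 and 7.53 ± 3.09 CPM with overlapping groups. Of the 20 tenascins, matricellular proteins and hyaluronan genes tested, 7 had an unadjusted p under 0.05 (35% against 4.01% of all genes), 4 higher and 3 lower, and 3 of these 7 are on the study's list. The remaining matrix groups lay nearer to the median of all genes. Under that p were 1 of 23 laminins and integrins, 2 of 25 proteoglycans, 2 of 35 collagens and 1 of 39 matrix proteases and inhibitors. COL1A1, a chain of fibrillar type I collagen, averaged 14.1 ± 7.78 and 15.1 ± 6.41 CPM, with control 3 at 3.08 CPM. The 2 collagens under that p were COL8A1, at 158 and 196 CPM (log2 fold change 0.31), and COL23A1, at 8.35 and 5.16 CPM (-0.71). TIMP3, an inhibitor of matrix proteases made by the RPE, had 1.58 and 4.47 CPM with overlapping groups. MMP2, gelatinase A, had a log2 change of -0.23 (standard error 0.16).

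GSN encodes gelsolin, which severs actin filaments. It had 402, 384, 327 and 288 CPM in the controls and 219, 162, 244 and 284 CPM in FDM. FDM 13 at 283.8 and control 7 at 288.1 CPM nearly met, and the log2 fold change was -0.62 (standard error 0.20). CRHOB, the table's name for RHOB, a small GTPase of the actin cytoskeleton, had 74.4, 92.2, 79.2 and 79.8 CPM in the controls and 105, 108, 109 and 114 CPM in FDM. It had the lowest adjusted p after the 3 called genes, shared with LOC417800 and MSANTD1 (0.161 in edgeR), with a log2 change of 0.42 (standard error 0.08). These were the 2 genes under an unadjusted p of 0.05 among 30 actin regulators, whose median was 0.01.

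Thyroid hormone acts on cone opsin choice in the developing retina. Of 10 genes tested in its list 3 had an unadjusted p under 0.05 (30% against 4.01% of all genes), and 3 had no overlap, 1 higher and 2 lower (30% against 2.74%). Both counts include SLCO1C1 and DIO2. SLCO1C1, a carrier that takes thyroxine into cells and is on the study's list, had 126, 122, 124 and 130 CPM in the controls and 185, 149, 167 and 171 CPM in FDM. Its log2 fold change was 0.42 (standard error 0.13, edgeR adjusted p = 0.852). DIO2, the deiodinase that makes active hormone from thyroxine, had 22.7, 23.9, 19.2 and 19.2 CPM in the controls and 16.7, 16.1, 16.1 and 16.3 CPM in FDM. That is a log2 change of -0.38 (standard error 0.15). CRYM, a cytosolic binder of the hormone, averaged 59.3 and 50.9 CPM with overlapping groups. The receptors THRA and THRB had log2 fold changes of 0.20 and 0.06.

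Immediate early genes respond to neuronal and growth factor stimulation within an hour. The 14 transcription factors of the list, which include EGR1 and FOS, held 0 genes under the unadjusted p of 0.05. EGR1 (ZENK), whose product in chick amacrine cells is known to follow the sign of defocus, had 142, 134, 71.2 and 120 CPM in the controls and 93.6, 187, 121 and 97.1 CPM in FDM. Its groups overlapped throughout and its log2 fold change was 0.08 (95% interval -0.37 to 0.53). Without both control 3 and FDM 9 that change was 0.29. The 16 kinases, phosphatases and effectors held 5 genes under that p (31.2% against 4.01% of all genes), and 2 of these 5, SIK1 and CRHOB, are on the study's list. The family was written with earlier results known, so this share is a description only. SIK1, a salt-inducible kinase that CREB activity switches on, had 136, 153, 123 and 111 CPM in the controls and 77.5, 101, 104 and 75.8 CPM in FDM. That is a log2 change of -0.55 (standard error 0.12, edgeR adjusted p = 0.356). PTGS2, the inducible cyclooxygenase, had 51.5, 49.9, 55.0 and 45.7 CPM against 34.2, 32.8, 44.4 and 43.2 CPM, a log2 change of -0.38 (standard error 0.12). PTX3, a secreted pentraxin, was counted 2, 21, 7 and 22 times in the controls and 2, 2, 2 and 6 times in FDM. Control 3 lay among the FDM chicks for PTX3, so that the groups overlapped. PTX3 passed the count minimum with the help of the recovery libraries. GEM, a small GTPase, had a log2 fold change of 0.41 (62.2 and 82.7 CPM).

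Most neuropeptide genes overlapped between the groups, with more members lower than higher in FDM. Of 35 tested, 18 of them receptors, 14 were higher and 21 lower, with a median of -0.07. Those with an unadjusted p under 0.05 numbered 4 (11.4% against 4.01% of all genes) and all were lower. Without overlap 5 were lower and 0 higher, 14.3% of the list against 2.74% of all genes. GCG, which encodes glucagon, a peptide of chick amacrine cells, had 29.7, 26.9, 35.5 and 32.1 CPM in the controls and 22.2, 23.3, 21.0 and 19.8 CPM in FDM. Its log2 fold change was -0.52 (standard error 0.14, edgeR adjusted p = 0.628). PCSK1, a convertase that cleaves peptide precursors, had 77.2, 63.7, 69.2 and 73.4 CPM in the controls and between 53.8 and 56.9 CPM in FDM, a log2 change of -0.35 (standard error 0.08). PCSK2, the convertase that frees glucagon in pancreas, had a log2 fold change of -0.06. The receptors CRHR2 (for corticotropin-releasing hormone and urocortins) and VPAC2 (for VIP) averaged 8.95 and 5.45 CPM and 29.7 and 24.9 CPM. VIP itself, vasoactive intestinal peptide, had 12.9, 11.7, 17.2 and 11.5 CPM in the controls and 12.0, 11.5, 9.51 and 10.1 CPM in FDM. Its 95% interval of -0.69 to 0.11 included 0. For GCG, control 3 and FDM 9 each lay inside the range of their own group.

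Dopamine is a retinal signal whose release falls under diffusers in chicks. TH, its rate-limiting enzyme, was counted 5, 7, 5 and 8 times in the controls and 7, 8, 8 and 9 times in FDM. After scaling these were 1.40, 1.61, 1.66 and 1.85 CPM in the controls and 1.92, 2.30, 2.30 and 1.86 CPM in FDM. The groups did not overlap in CPM, though control 7 and FDM 13 were nearly level, and the 95% interval of the log2 fold change, -0.34 to 1.02, included 0 at this depth. No compared library reached 10 counts of TH, which passed the count minimum through the recovery libraries. Of 14 dopamine genes tested, SPR alone had an unadjusted p under 0.05. It encodes sepiapterin reductase, the last step in making the cofactor of TH, and had 9.51, 13.1, 9.61 and 14.3 CPM in the controls and 8.21, 6.61, 6.34 and 6.82 CPM in FDM (log2 fold change -0.74, standard error 0.21). GCH1, the first enzyme of that cofactor's synthesis, had a log2 change of -0.44 (standard error 0.25). The receptors DRD2, DRD4 and DRD5 lay at -0.05, -0.06 and 0.03. In the clock list 1 of 16 genes had an unadjusted p under 0.05, CRY1 at 290 and 257 CPM (log2 fold change -0.18). PER2, a clock repressor, averaged 1073 ± 96.7 and 989 ± 60.8 CPM. Of the 5 melatonin genes 0 were under that p. AANAT, the enzyme that times melatonin synthesis, ranged from 3.92 to 14.99 CPM in the controls and from 3.83 to 22.2 CPM in FDM, and the lowest chick of each group was chick 3 and chick 9.

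Phototransduction genes lay near 0. All 16 cone genes tested had a 95% interval inside -0.5 to 0.5, their log2 fold changes ran from -0.13 to 0.12, and 0 of them had an unadjusted p under 0.05. CNGA3, the cone channel subunit, had 232, 190, 179 and 184 CPM in the controls and 220, 199, 159 and 199 CPM in FDM, a log2 fold change of -0.01. Of 9 rod genes 0 were under that p. Of 6 opsins tested 5 were lower, between -0.22 and -0.16, among them both melanopsins (OPN4-1 at -0.19 and OPN4-2 at -0.16) and RRH, peropsin of the RPE, at -0.16. OPN5, neuropsin, stood at 0.29. None had an unadjusted p under 0.05. Of 19 photoreceptor transcription factors 16 were higher with a median of 0.14. NEUROD4 averaged 46.1 ± 17.8 and 67.5 ± 15.01 CPM and SALL1 318 ± 9.52 and 282 ± 28.1 CPM, both with overlapping groups. The score of these factors was -0.59 in control 3 and -0.22 in FDM 9, against -0.09 to 0.34 in the other 6, and the list's median was 0.04 without control 3 and 0.14 without both. The visual cycle (10 genes) and melanin synthesis (15 genes) held 0 genes under that p. RPE65, the isomerase of the visual cycle, averaged 550 ± 43.6 and 568 ± 25.3 CPM, and TYR, tyrosinase, 35.2 ± 4.86 and 32.2 ± 10.2 CPM.

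Inhibitory receptor subunits had more members lower than higher in FDM, by small amounts. GABA-A and glycine receptors are chloride channels of 5 subunits through which amacrine and horizontal cells act. Of 21 subunit genes tested 16 were lower and 5 higher, with a median log2 fold change of -0.07, and 1 had an unadjusted p under 0.05 (4.76%, close to the 4.01% of all genes). The whole list of GABA and glycine transmission, 34 genes, had a median of -0.04, which was -0.01 without control 3 and -0.04 without both control 3 and FDM 9, and its scores overlapped between the groups (-0.12 to 0.08 in the controls and -0.08 to 0.03 in FDM). GABRA6 was the most abundant subunit in CPM, at 943 ± 49.7 and 870 ± 49.2 CPM (log2 fold change -0.12). The list of ligand-gated channel genes that the study tabulates, a choice made on these samples, has 9 entries here. GABRG3 was under the count minimum, and all 8 others were lower in FDM, with a median log2 fold change of -0.15. In 7 of these 8 the groups overlapped. Their summed level was 2454 to 2876 CPM in the controls and 2276 to 2443 CPM in FDM, without overlap. Without both chicks that stood apart the median was -0.11 and all 8 were still lower. The 13 genes of synthesis, transport and GABA-B receptors held 0 genes under that p. GAD67, which makes GABA, had a log2 fold change of -0.04.

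**Figure D3:**
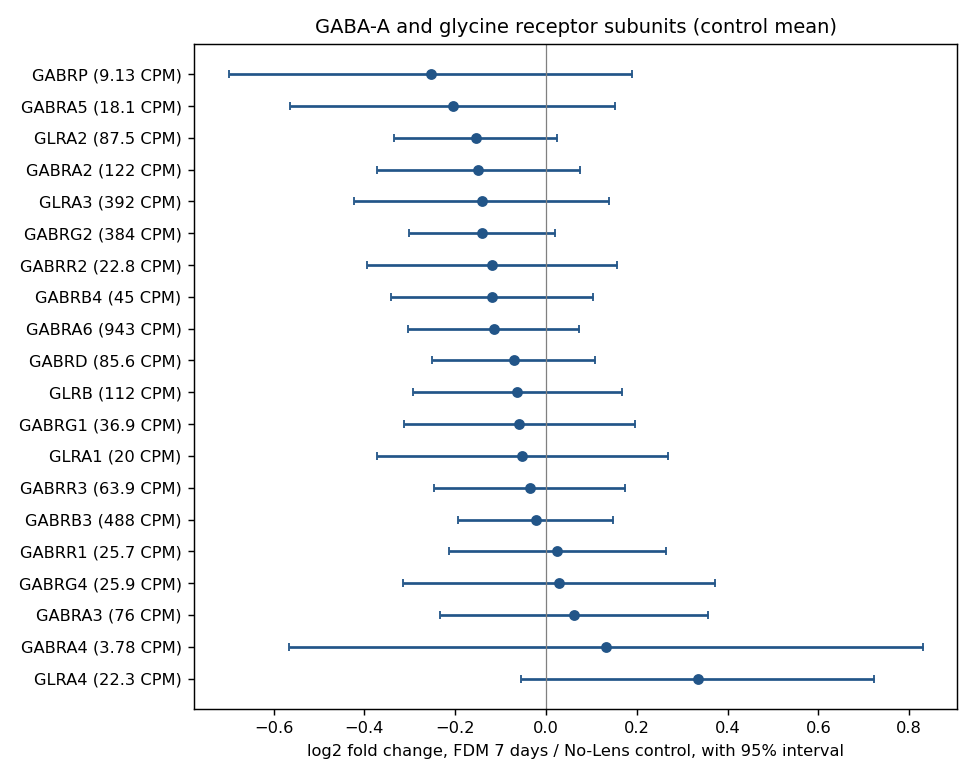
Log2 fold change of FDM 7 days over No-Lens control with its 95% interval (horizontal) for 20 of the GABA-A and glycine receptor subunit genes tested, with the mean CPM of the controls beside each name. Of the 20 points 15 lie below 0, and the interval of each of the 20 includes 0. The tested subunit that is not drawn is the one with an unadjusted p under 0.05.

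Excitatory transmission lay closer to 0. Of 40 glutamate genes 20 were higher and 20 lower, with a median of 0.00. GRIK1, a kainate receptor of OFF bipolar cells, averaged 547 and 494 CPM (log2 fold change -0.15), and GRIA2, an AMPA receptor subunit, 404 and 390 CPM (-0.05). In the release machinery 3 of 42 genes had an unadjusted p under 0.05, STX3 (syntaxin 3 of ribbon synapses, log2 fold change 0.37) and the synaptotagmins SYT13 (-0.36) and SYT16 (-0.56). SYT1, the calcium sensor of fast release, averaged 1111 ± 77.6 and 1137 ± 51.2 CPM.

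Of 59 potassium channels 7 had an unadjusted p under 0.05 (11.9% against 4.01% of all genes), 2 higher and 5 lower. KCNJ13, an inward rectifier of the RPE apical membrane, had 30.5, 27.8, 31.1 and 31.4 CPM in the controls and 24.4, 19.6, 23.3 and 23.8 CPM in FDM. Its log2 fold change was -0.40 (standard error 0.10, edgeR adjusted p = 0.622). KCNH4 had 3.92, 5.98, 5.63 and 5.77 CPM against 7.94, 12.1, 11.2 and 8.88 CPM, a log2 change of 0.90 (standard error 0.26). KCNQ1 averaged 12.3 and 17.2 CPM (0.48), and KCNH8 43.9 and 34.8 CPM (-0.33), both without overlap. Of 49 ion and water transport genes 4 were under that p. CLCN5, a chloride and proton exchanger, had between 100.2 and 107 CPM in the controls and between 90.9 and 92.5 CPM in FDM, a log2 change of -0.16 (standard error 0.07). SLC9A3, a sodium and proton exchanger, was counted 13, 17, 13 and 19 times in the controls and 9, 4, 6 and 7 times in FDM (log2 fold change -1.25). It relied on the controls, where it is higher, to pass the count minimum, so that change is a description only. CA2, carbonic anhydrase, averaged 1731 ± 99.5 and 1506 ± 155 CPM (-0.20). The summed level of the transport list was 8659 to 8913 CPM in the controls and 7823 to 8430 CPM in FDM, without overlap, while its median log2 fold change was -0.03. Such a sum is weighted towards abundant genes such as CA2. Of the 48 families only this one and complement had sums without overlap. Without any group difference about 0.0286 of sums would be so separated, so this is a description only. Voltage-gated calcium and sodium, HCN and TRP channels held 1 of 44 genes under that p, CACNA1S at a mean of 7.25 counts per library.

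Housekeeping families set the scale of the others. Under the unadjusted p were 1 of 54 nuclear respiratory chain genes (NDUFA5, log2 fold change -0.21), 0 of 47 genes of glycolysis and the citric acid cycle, 1 of 65 cytosolic ribosomal proteins (RPL6, -0.17), 1 of 71 heat shock proteins and chaperones (HSF2, 0.20), 1 of 36 genes of cholesterol and fatty acid synthesis (INSIG1, 0.22) and 3 of 57 of DNA repair and replication. The 95% interval lay inside -0.5 to 0.5 for 56 of the 65 ribosomal and 59 of the 71 chaperone genes. GAPDH averaged 4809 ± 587 and 4398 ± 341 CPM, MT-CO1 of the mitochondrial genome 13011 ± 1035 and 12857 ± 1098 CPM, and HSPA5, the endoplasmic reticulum chaperone, 299 and 266 CPM. In the iron list ABCG2, a transporter that exports haem, was the 1 of 20 genes under that p (log2 fold change -0.54). In the complement list these were C7 (-0.51) and PROS1 (protein S, -0.30) of 12 (16.7% against 4.01% of all genes), while 7 of the 12 were higher. The summed level of that list was 390 to 503 CPM in the controls and 324 to 386 CPM in FDM, without overlap. Among the 48 families this held only here and for ion and water transport. PROS1 alone averaged 325 and 263 CPM. In the endothelium list VEGFA, the vascular growth factor, was the 1 of 23 under that p (29.4 and 23.2 CPM).

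**Figure D4:**
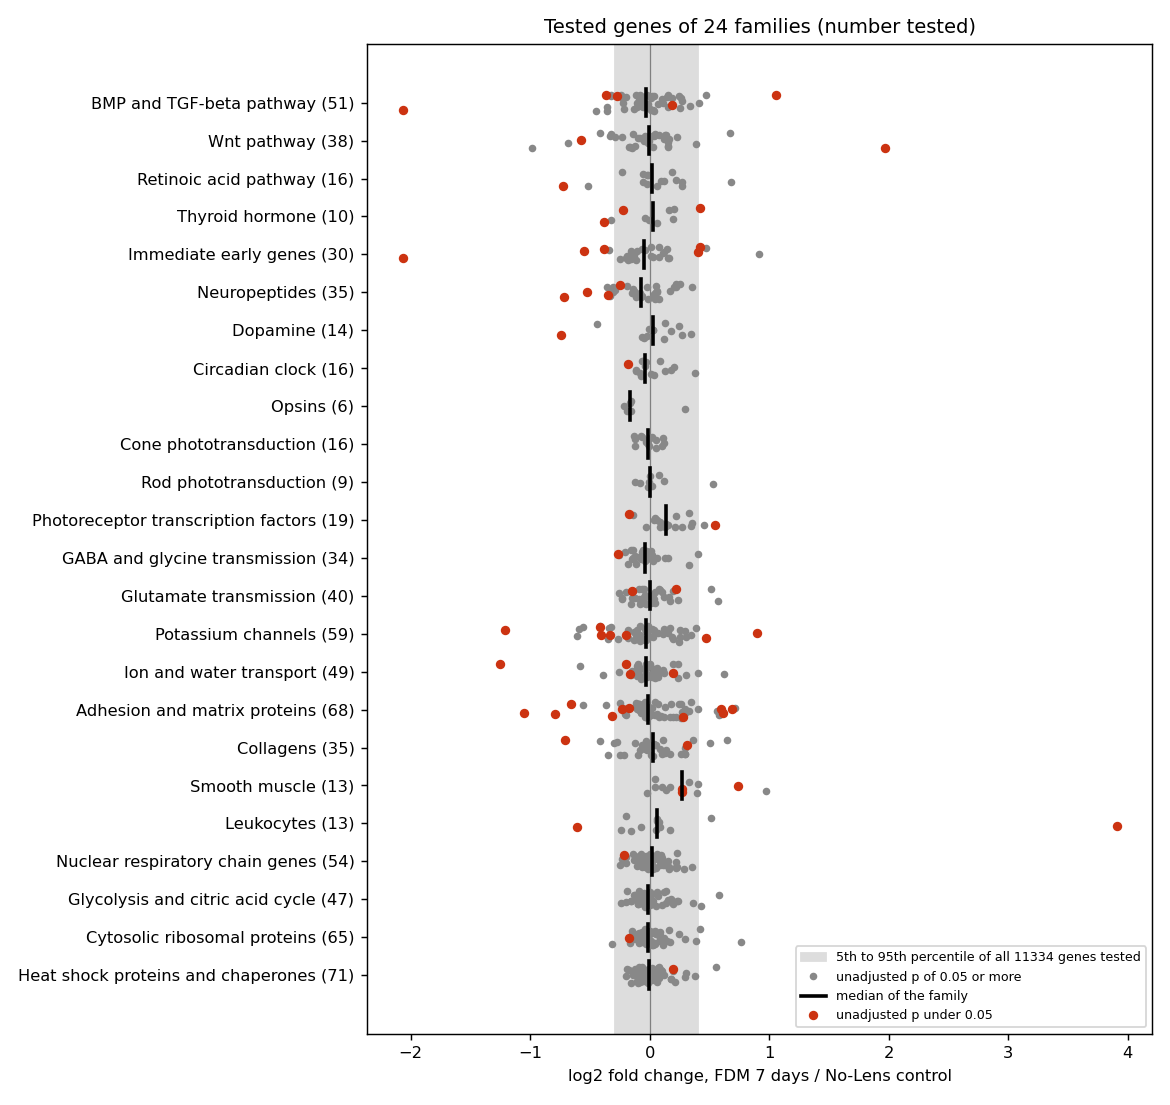
Log2 fold change of FDM 7 days over No-Lens control (horizontal) of every tested gene in 24 families, with the number tested in brackets, the family median as a black bar and genes with an unadjusted p under 0.05 in red. The grey band spans the 5th to 95th percentile of all genes tested, -0.29 to 0.40; all medians shown lie within it, from -0.16 for opsins to 0.27 for smooth muscle.

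Over 48 families the median log2 fold change lay between -0.21 and 0.27. It was within 0.1 of 0 in 42 of them and beyond 0.2 in 2, melatonin with 5 genes and smooth muscle with 13. More members were higher than lower in 22 families and more were lower in 22. A call was made in 3 families, each for one of the genes above, and 13 families held 0 genes under the unadjusted p of 0.05. The per-chick scores of the 2 groups overlapped in all 48.

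The tissue label was checked against markers of its cell types. Markers of several types were well expressed. Over the 8 chicks RPE65 of the RPE had 506 to 592 CPM. GLUL, glutamine synthetase of Müller glia, had 1483 to 2451 CPM and KDR, a VEGF receptor of endothelium, 228 to 268 CPM. Other types were less well covered. LHX1 of horizontal cells averaged 2.27 CPM in the controls and 2.80 CPM in FDM, and 13 of 24 listed leukocyte genes were tested. Crystallins of the lens summed to 24.4 to 36.3 CPM over 3 genes. Smooth muscle, which chick choroid contains, had the highest median of the 48 families. Of its 13 contractile genes 12 were higher in FDM, where 51.5% of all genes tested were higher, with a median of 0.27. An unadjusted p under 0.05 was reached by 3 of them (23.1% against 4.01% of all genes) and 1 had no overlap (7.69% against 2.74%). That one was MYLK, myosin light chain kinase, with 444, 454, 401 and 408 CPM in the controls and 548, 462, 473 and 572 CPM in FDM (log2 fold change 0.27, standard error 0.09). TAGLN, an actin-binding protein of smooth muscle, had 14.6, 38.6, 23.2 and 31.8 CPM against 30.4, 50.6, 55.3 and 46.9 CPM (0.74, standard error 0.27). ACTG2 averaged 319 ± 75.2 and 423 ± 51.5 CPM and VCL, vinculin, 50.2 and 60.4 CPM. The smooth muscle score was -0.61 in control 3, -0.07 to 0.08 in the other controls and 0.03 to 0.27 in FDM. Without control 3 the median was 0.21, and without control 3 and FDM 9 it was 0.20, with 11 of 13 genes higher and 2 under that p. The summed level of the list overlapped, at 1609 to 2151 CPM in the controls and 1949 to 2365 CPM in FDM. The list's part in ALDH1A2, TNC and other choroidal genes was not tested.

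Neuronal and glial markers differed by less. Ganglion cell genes were higher in 14 of 16 (median 0.06), amacrine genes in 10 of 14 (0.08), ON bipolar genes in 8 of 12 (0.09), Müller glial genes in 9 of 12 (0.08) and horizontal cell genes in 7 of 9 (0.15). Control 3 had the lowest score of the 8 chicks in ganglion, horizontal and Müller cells and in 34 of the 48 families. Without control 3 the medians were 0.05 for ganglion, 0.03 for amacrine, 0.08 for ON bipolar, 0.04 for Müller glial and 0.08 for horizontal cell genes. Without both control 3 and FDM 9 they were 0.05, 0.05, 0.11, 0.07 and 0.13 in the same order, and 10 of the 16 ganglion cell genes were higher. In the ON bipolar list 2 genes had an unadjusted p under 0.05 (16.7% against 4.01% of all genes), and both were lower in FDM. One was RGS16, a regulator of G protein signalling. It had 41.4, 59.8, 50.0 and 51.4 CPM in the controls and 35.3, 40.3, 29.4 and 36.1 CPM in FDM (log2 fold change -0.53). The other, GNAO1, averaged 87.8 and 74.8 CPM with overlapping groups (-0.23). SPARCL1, a matrix protein of glia, averaged 147 ± 17.4 and 204 ± 40.2 CPM (0.48, edgeR adjusted p = 0.561). Without FDM 12, the lowest FDM chick for SPARCL1 at 149 CPM, its log2 fold change was 0.60 with an edgeR adjusted p of 0.0318, and it was then called. With other chicks left out in turn, the edgeR adjusted p of SPARCL1 reached up to 0.9999. Without both control 3 and FDM 9 it was 0.424. In the connective tissue list PDGFRA, a receptor of fibroblasts, had 80.0, 109, 81.2 and 74.3 CPM against 71.2, 68.2, 61.9 and 69.0 CPM (-0.35).

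**Figure D5:**
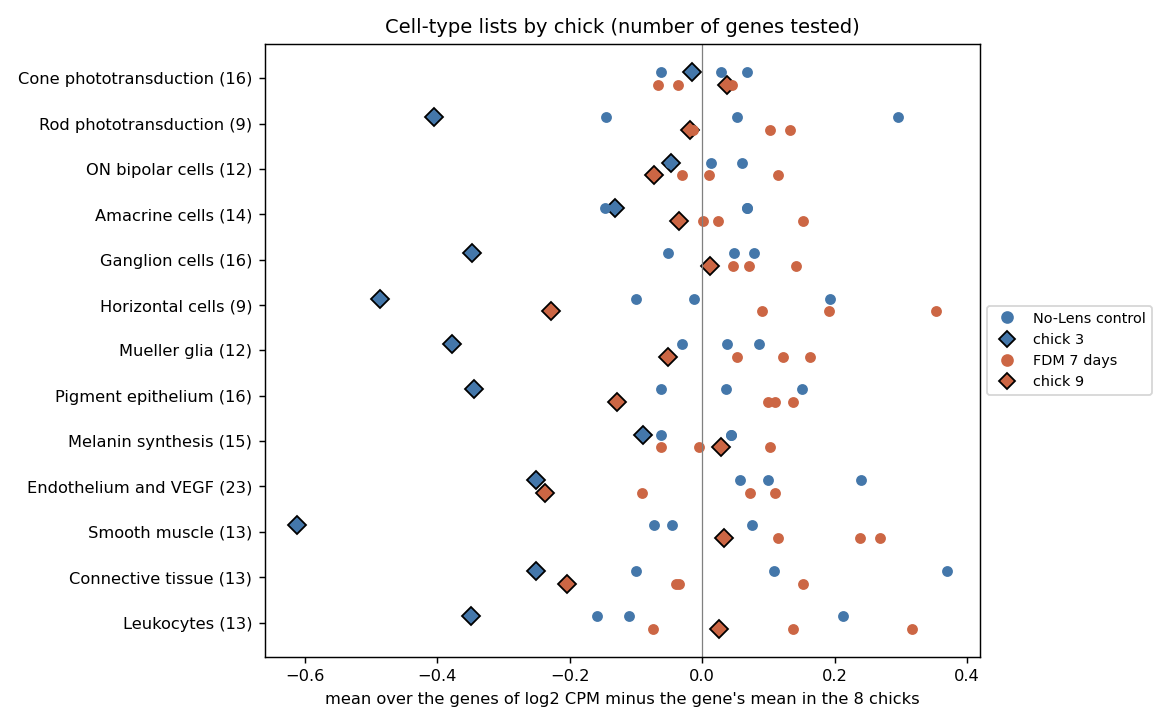
Score of 13 cell-type lists (mean over the genes of log2 CPM less the gene's mean in the 8 chicks, horizontal) for each control (blue) and FDM (orange) chick, with the number of genes tested in brackets. Control 3 and FDM 9 are drawn as diamonds; control 3 is the lowest chick in most lists, at -0.61 for smooth muscle, and the groups overlap in every list.

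Named genes averaging 10 or more counts and separated between the groups were ranked by fold change. The 10 highest and the 10 lowest fold changes included several outside the families. ADM, the vasodilator adrenomedullin, had a log2 fold change of 1.37 at a mean of 11.5 counts. The others on the high side were FAM173B (1.10), DAPP1 (0.93), WDR90 (0.92), the nucleolar protein NOP56 (0.84) and the protease ADAM8 (0.84), each under 41 counts on average. The edgeR adjusted p was 0.628 for NOP56 and between 0.835 and 0.9998 for ADM and the rest of these. On the low side were the galactosyltransferases A4GALT (-1.20) and B3GALT5 (-0.92), MSANTD1 (-1.01), and NPR3 (-0.78), the clearance receptor of natriuretic peptides. Their edgeR adjusted p were 0.628 (A4GALT and NPR3), 0.9998 (B3GALT5) and 0.161 (MSANTD1). All these genes were picked for a large change without overlap, so the sizes are descriptions only. ADM relied on the FDM libraries and A4GALT on the controls to pass the count minimum. EGLN3, an oxygen-sensing prolyl hydroxylase, had 17.9, 25.5, 29.8 and 27.2 CPM in the controls and 12.9, 14.1, 17.3 and 15.7 CPM in FDM. Its log2 fold change was -0.74 (standard error 0.16) with an edgeR adjusted p of 0.258. That p was 0.0425 without control 3, whose value of 17.9 CPM was close to that of the highest FDM chick, so that EGLN3 was then called.

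For the 3 called genes the levels after occluder removal stand beside those above, as a description, since the recovery groups share the history of occlusion and the 6 h group was collected later in the day. BMP2 was at 68.3 ± 8.19 CPM at 6 h and 49.1 ± 5.07 CPM at 24 h (SD, n = 4), above every control and FDM chick in all 8 recovering chicks. WNT9A was counted 9 times in all 4 chicks at 6 h and 25 times at 24 h, below every FDM chick in CPM. SHC4 was at 62.4 ± 3.06 CPM at 6 h and 50.9 ± 8.76 CPM at 24 h.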

How the data were processed

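Counts per gene were deposited by the authors without normalization, from HTSeq after trimming with cutadapt and Trimmomatic and alignment to galGal4 with TopHat2 and Bowtie2, according to the submitters' processing notes. The strand option of the counting and the annotation version are not given in the sources used here, so overlapping genes and near-identical copies are uncertain. The table's 6 lines that name no gene were left out; reads on genes made up 54.1% to 57.3% of a library's total in the 8 libraries. Of 17108 genes 13858 had a symbol.

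Groups came from the labels, 4 chicks each, with the chick as replicate. All 16 libraries entered 1 fit in edgeR 4.0.16 (R 4.3.3) with TMM factors, a filter of 10 counts in 4 libraries, the quasi-likelihood test and Benjamini-Hochberg adjustment. The biological coefficient of variation was 12.5%. Log2 CPM used a prior count of 2, and intervals used 18.2 degrees of freedom. Alternatives were edgeR's likelihood ratio test, DESeq2 1.42.0, limma-voom (limma 3.58.1), RLE factors, other filters, an FDR of 1% or 10%, only the 8 libraries, the first axis within groups as a covariate and leaving out each chick; leaving out both chicks that stood apart was added after seeing the data. On simulated data with 200 of 11334 genes changed by 1 on the log2 scale, the main test called 164 of them and 5 others. The simulated counts were independent between genes, followed the fitted trend of dispersion and held no axis shared by the genes of a chick. They therefore do not give the recovery to be had in the real libraries. Tables and figures used Python 3.11.15, pandas 2.3.3, scipy 1.17.1 and matplotlib 3.10.9.

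Families were written by hand; they, the members and the rule for named genes were chosen with earlier results of these data known. The rule names called genes, the study's 13 listed genes and 9 channel genes, the 10 largest rises and falls without overlap, up to 4 family members of lowest unadjusted p under 0.05, and a key gene per family; further members are named for their role and were chosen after their values were seen. Some genes under this rule are not reported here, nor were promoter sequences analysed. Replicates are separate chicks, and counting intervals cover counting error only. Genes are named as in the deposited table.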

Additional observations from a re-analysis of the deposited data

Results flagged for a closer look

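In groups of 4 chicks, a chick far from the other 3 by Dixon's ratio at its 95% critical value was found in 20 of 328 groups of named genes and family scores, where chance alone gives about 1 in 20. Control chick 3 accounted for 7 of these and FDM chick 9 for 4. Control 3 was the low chick for BMP2 (12.31 CPM, the others 18.9 to 19.6) and KCNH4 (3.916 CPM, the others 5.63 to 5.98), and the high chick for HSF2 (116.4 CPM, the others 99.2 to 99.7) and GRIA2 (472.2 CPM, the others 372 to 388). Its scores were low for the BMP and TGF-beta pathway (-0.3327), Src family kinases and Shc adaptors (-0.444) and actin regulators (-0.1785). Control 4 was low in the score of GABA and glycine transmission (-0.1183). FDM 9 was the high chick for GLRA2 (92.51 CPM, the others 72.5 to 75.6) and RPL6 (426.7 CPM), and its scores were low for the pigment epithelium (-0.1289) and potassium channels (-0.1102). FDM 12 was the high chick for BMP2 (6.913 CPM, the others 3.28 to 3.45), CLEC3B (188.1 CPM), VPAC2 (26.5 CPM) and COL23A1 (7.201 CPM), and low in the opsin score (-0.2042). FDM 10 was low for SHC4 (34.22 CPM, the others 38.9 to 39.8) and FDM 13 high for PTX3 (1.239 CPM). In recovery, FDMR 6 h chick 18 was high for WNT9A (1.471 CPM, the others 0.214 to 0.257).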

How the results depend on the processing

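Against 3 genes called, edgeR's likelihood ratio test gave 12, DESeq2 8, an FDR of 1% 1, the fit of only the 8 libraries 0, and the fit without both control 3 and FDM 9 gave 1. With the first axis within groups as a covariate 82 genes were called, 74 of them higher, and 1135 had an unadjusted p under 0.05; that axis was derived from these libraries. The 3 called genes were among those of the first 2 tests and of the covariate fit. Leaving out 1 chick gave 1 to 2 called genes, always with BMP2, and 404 to 652 genes under the unadjusted p. Genes without overlap numbered 510 to 729 with 1 chick left out and 1231 without both, where fewer chicks must separate. Of the log2 fold changes of 111 named genes, 10 turned sign with some chick left out, all of them key genes with a value near 0 or a wide error. With 1 chick left out at a time they ranged from -0.2924 to 0.0198 (TYR), -0.0750 to 0.0800 (CNGA3), -0.1781 to 0.1934 (EGR1), -0.0869 to 0.0440 (GAD67), -0.0211 to 0.1608 (PTPRC), -0.2387 to 0.3429 (COL1A1), -0.0455 to 0.5102 (HBB), -0.0705 to 0.0280 (MT-CO1), -0.4646 to 0.1237 (TF) and -0.0871 to 0.0331 (GRIA2). Without both control 3 and FDM 9 the turned values were 0.0155 (CNGA3) and 0.0145 (GRIA2). No paired analysis was possible because the groups share no chick numbers. No family median moved by more than the SD of the family's score between chicks, an SD that includes control 3. Leaving out 1 chick can hardly move a median that far, so this bound does not show that the medians are stable. With 1 chick left out some medians turned sign. Examples are rod phototransduction (-0.0831 to 0.2157), red blood cells (-0.2572 to 0.4011) and collagens (-0.0620 to 0.1010). The smooth muscle median stayed between 0.2130 and 0.3161. The cause of these shifts was not tested. Depth limits genes under about 30 counts, whose median standard error was 0.34. The promoter motifs planned were not run, for want of sequences.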
